A study of Rattus norvegicus with 20 samples.

Results

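The neutrophil granule and receptor genes described here were 9 genes of rat whole blood, S100a8, S100a9, Mmp8, Mmp9, Fcnb, Ngp, Lcn2, Csf3r and Cxcr2. They were chosen by name, as the rows of the deposited count table that carry these symbols, out of 32882 rows. Each symbol named 1 row. Of the 9 members, 8 passed the filter on low counts, as did 16734 genes in all, and Lcn2 did not.

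The study sequenced RNA from whole blood of healthy male Fischer 344 rats, an inbred wild-type strain, labelled as 8 weeks old. For 20 days all rats ate a base diet sufficient in choline and defined in its amino acids (CSAA), which without supplement was the control. The diet carried 1.34 g/kg pterostilbene in 5 rats (CSAA+PTS), 1.2 g/kg resveratrol in 5 rats (CSAA+RSV), 1.9 g/kg chlorogenic acid in 5 rats (CSAA+CGA) and no added compound in 5 rats (CSAA). Pterostilbene is the dimethoxy analog of resveratrol, and the study describes the 3 supplements as fed in equal molar amounts. The fourth CSAA+RSV rat was left out because of its low depth, so 19 rats were compared. Each rat was its own library.

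Neutrophils are short-lived granulocytes that leave the bone marrow, circulate in blood and enter tissue at sites of infection. Their granule proteins are made mostly while the cell matures in the marrow, in a set order, whereas the calcium-binding S100 proteins of the cytosol and the receptors for growth factor and chemokines remain prominent in the circulating cell. Transcripts of both kinds are commonly used as markers of the neutrophil compartment. Which cells held them in these samples was not tested.

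RefSeq promoter windows in the rat build GRCr8, from 250 bases before to 50 bases after the start of the gene, matched 7 of the 9 members by symbol, and S100a8 and Mmp9 were not among them. The 5 shown here belong to S100a9, Mmp8 and Cxcr2, whose levels went up and down together from rat to rat, and to Fcnb and Ngp, which differed most from the others. All are written 5′ to 3′ in the direction of the gene. Capitals mark matches to TTGCNNAA, a site type bound by C/EBP factors, with N for any base, and to GAGGAA, a PU.1 core, both searched on both strands, and to TATAAA, searched in the direction of the gene.
S100a9, chr2:178490573-178490872, minus strand: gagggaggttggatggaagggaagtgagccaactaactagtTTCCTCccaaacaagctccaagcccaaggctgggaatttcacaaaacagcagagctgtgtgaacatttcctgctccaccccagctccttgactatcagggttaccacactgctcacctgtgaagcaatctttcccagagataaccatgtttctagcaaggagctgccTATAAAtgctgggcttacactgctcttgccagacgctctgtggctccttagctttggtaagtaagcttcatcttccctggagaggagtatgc
Mmp8, chr8:13008640-13008939, plus strand: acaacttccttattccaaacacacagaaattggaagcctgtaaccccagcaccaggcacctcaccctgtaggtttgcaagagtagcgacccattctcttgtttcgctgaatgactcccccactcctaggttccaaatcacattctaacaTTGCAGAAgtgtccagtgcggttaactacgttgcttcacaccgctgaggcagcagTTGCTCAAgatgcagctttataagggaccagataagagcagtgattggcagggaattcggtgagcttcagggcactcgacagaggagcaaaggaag
Cxcr2, chr9:83178395-83178694, plus strand: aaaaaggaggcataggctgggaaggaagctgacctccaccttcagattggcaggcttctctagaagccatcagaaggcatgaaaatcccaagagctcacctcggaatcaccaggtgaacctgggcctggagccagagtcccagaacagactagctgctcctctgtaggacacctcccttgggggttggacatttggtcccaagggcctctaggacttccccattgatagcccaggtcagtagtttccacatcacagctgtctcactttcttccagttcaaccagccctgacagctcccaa
Fcnb, chr3:31800139-31800438, minus strand: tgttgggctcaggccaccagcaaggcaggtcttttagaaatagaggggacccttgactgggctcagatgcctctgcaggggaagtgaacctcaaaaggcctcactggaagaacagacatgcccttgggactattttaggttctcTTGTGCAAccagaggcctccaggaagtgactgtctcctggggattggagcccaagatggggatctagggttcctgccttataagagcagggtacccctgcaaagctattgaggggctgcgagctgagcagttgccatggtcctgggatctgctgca
Ngp, chr8:119272355-119272654, plus strand: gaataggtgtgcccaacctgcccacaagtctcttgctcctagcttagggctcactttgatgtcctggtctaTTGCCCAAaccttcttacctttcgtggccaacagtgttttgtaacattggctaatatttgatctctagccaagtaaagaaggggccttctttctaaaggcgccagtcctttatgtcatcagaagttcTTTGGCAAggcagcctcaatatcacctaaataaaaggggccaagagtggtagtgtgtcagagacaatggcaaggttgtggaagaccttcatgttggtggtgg
Of 33469 promoter windows of the same length, 10.6% held TTGCNNAA, 27.6% held GAGGAA and 8.80% held TATAAA. Counting from the start site, Mmp8 held TTGCNNAA at positions -101 and -46, Ngp at -179 and, on the other strand, at -52, and Fcnb on the other strand at -106. S100a9 held GAGGAA on the other strand at -209 and TATAAA at -42. The Cxcr2 window held none of the 3. Of the windows not printed, that of Csf3r held GAGGAA at -160 and that of Lcn2 held TTGCNNAA at -191 and GAGGAA on the other strand at 4. The matches did not overlap each other, and they describe letters of the reference sequence, not measured binding.

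The 19 libraries held 24036703 to 36743103 counts each, and the 9 members took 14949 to 35766 of them. Hemoglobin genes took 3.78% to 16.2% of the counts. More genes had at least 1 count in the 4 rats numbered 5 (25104 to 29543) than in the other rats (19600 to 23632). Levels are given as CPM, read counts scaled to a common library total after TMM adjustment of library sizes. Differences between diets are log2 fold changes from the quasi-likelihood test of edgeR with Benjamini-Hochberg adjustment over all 16734 genes.

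Per kilobase of the gene length in the file, the members spanned a wide range of levels. The median over 19 rats was 721 CPM per kb for S100a9 and 359 for S100a8. Fcnb stood at 32.0, Mmp8 at 21.0, Cxcr2 at 19.3 and Csf3r at 11.02 CPM per kb. Mmp9 had 1.51 and Ngp 1.28 CPM per kb, and Lcn2 had 0.0395. The ranges over rats of S100a9, 474 to 1200.3 CPM per kb, and S100a8, 223 to 942, overlapped. The ranges of Fcnb, Mmp8, Cxcr2 and Csf3r overlapped one another, as did those of Mmp9 and Ngp.

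S100a8 and S100a9 encode the 2 subunits of calprotectin, which binds calcium and sequesters metal ions from microbes. S100a8 had 126, 355, 153, 166 and 84.8 CPM in CSAA+PTS Rat1 to Rat5, 147, 190.4, 120.1 and 127 CPM in CSAA+RSV Rat1, Rat2, Rat3 and Rat5, and 217, 111, 107, 144 and 84.0 CPM in CSAA+CGA Rat1 to Rat5, against 135, 132, 157, 131 and 191 CPM in CSAA Rat1 to Rat5. The diets overlapped, and CSAA+PTS Rat2 had the highest level of the 19 rats. The log2 fold change of CSAA+PTS over CSAA was 0.24 (SE 0.30, adjusted p = 0.822, exact permutation p = 0.810). Without CSAA+PTS Rat2 it was -0.14. For CSAA+RSV and CSAA+CGA it was -0.03 and -0.17 (SE 0.32 and 0.30), both with adjusted p of 1.00. In whole blood, a change in the number of cells that hold a transcript and a change in its amount per cell cannot be told apart.

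S100a9 showed the same rat on top. Its CPM were 329, 634, 439, 486 and 263 in CSAA+PTS, 380.5, 515, 506 and 446 in CSAA+RSV and 467, 286, 250.2, 331 and 279 in CSAA+CGA, against 288, 337, 367, 598 and 417 in CSAA. CSAA Rat4 came close to CSAA+PTS Rat2, although the S100a8 level of CSAA Rat4 was the lowest of its diet. The log2 fold changes over CSAA were 0.10 for CSAA+PTS (SE 0.24, adjusted p = 0.907), 0.20 for CSAA+RSV (SE 0.25, adjusted p = 1.00) and -0.31 for CSAA+CGA (SE 0.24, adjusted p = 1.00). Without CSAA+PTS Rat2 the value for CSAA+PTS was -0.05. The ratio of S100a9 to S100a8 counts was 1.79 in CSAA+PTS Rat2, the lowest of the 19 rats, and 4.56 in CSAA Rat4, the highest.

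**Figure D1:**
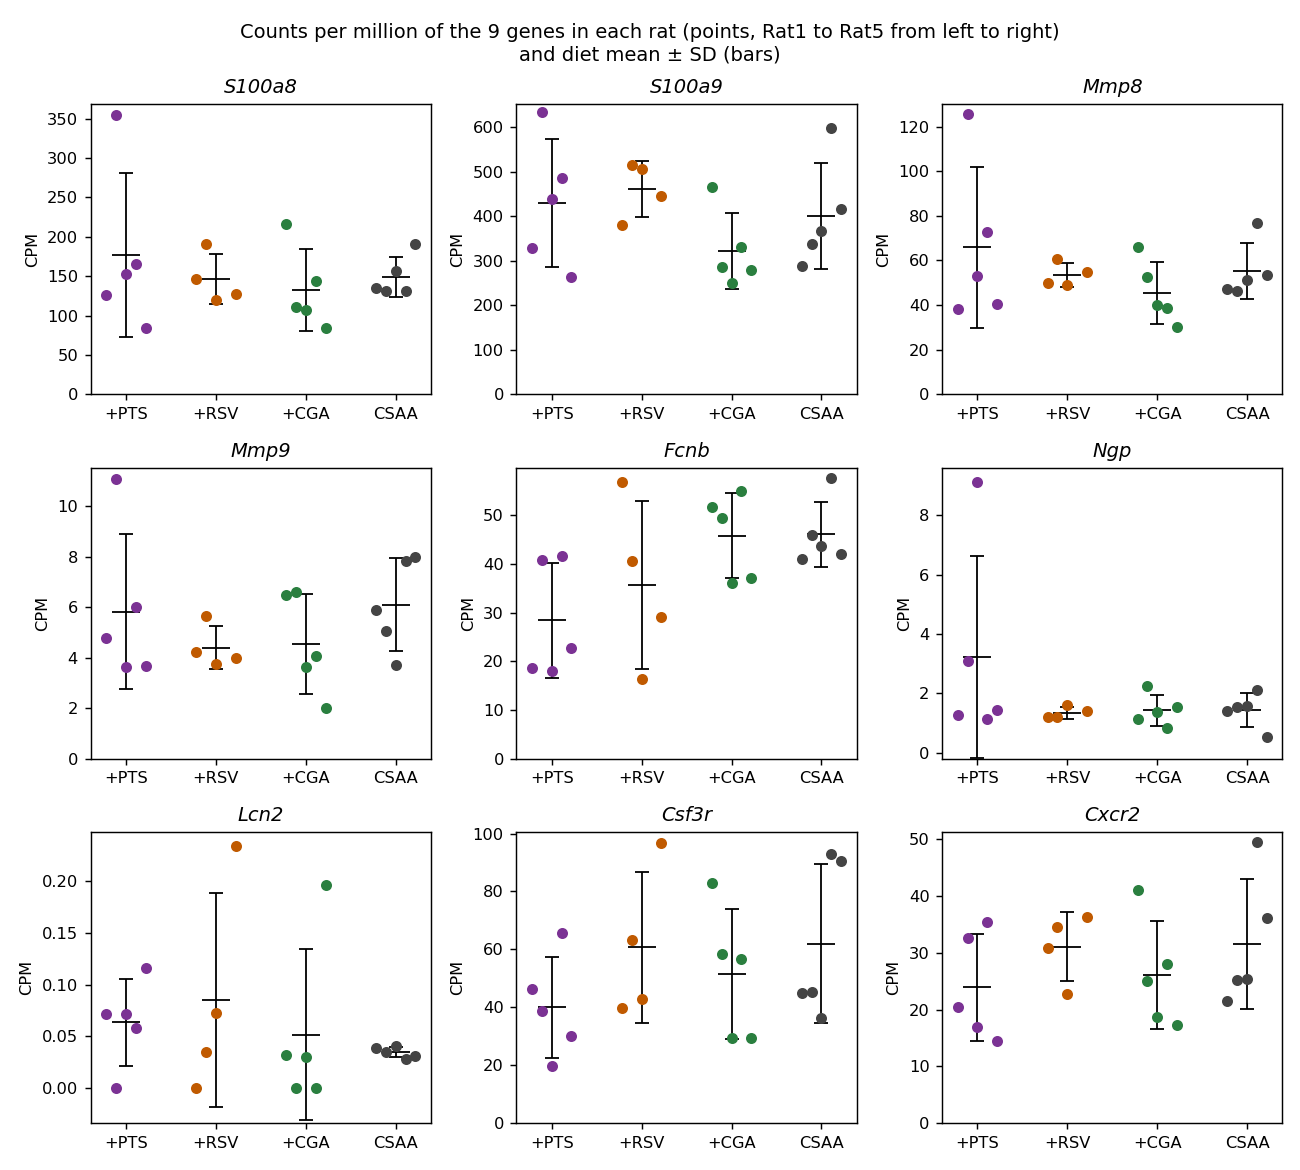
CPM of the 9 genes (vertical axis, linear, one panel per gene) in CSAA+PTS, CSAA+RSV, CSAA+CGA and CSAA rats (horizontal axis). Points are rats, in order of rat number within a diet, and bars are the diet mean ± SD. CSAA+PTS Rat2 has the highest point for S100a8 (355 CPM), S100a9, Mmp8 and Mmp9, and CSAA+PTS Rat3 has the highest for Ngp (9.14 CPM).

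Mmp8 and Mmp9 encode neutrophil collagenase, a protease of the specific granules, and gelatinase B, which gives the gelatinase granules their name. Mmp8 had 38.1, 125, 53.1, 72.7 and 40.3 CPM in CSAA+PTS, 49.9, 60.7, 49.1 and 54.8 CPM in CSAA+RSV and 66.2, 52.5, 39.9, 38.7 and 30.3 CPM in CSAA+CGA, against 47.2, 46.5, 51.3, 77.0 and 53.7 CPM in CSAA. Both CSAA+PTS Rat2 and CSAA Rat4 stood well above the rest of their diets, and the diets overlapped. For CSAA+PTS over CSAA the log2 fold change was 0.26 (SE 0.27, adjusted p = 0.791), and without CSAA+PTS Rat2 it was -0.08. For CSAA+RSV it was -0.04 (SE 0.29) and for CSAA+CGA -0.28 (SE 0.27).

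Mmp9 was the scarcer protease transcript, with 81 to 276 reads per rat. It had 4.76, 11.1, 3.64, 6.01 and 3.67 CPM in CSAA+PTS, 4.23, 5.65, 3.76 and 3.98 CPM in CSAA+RSV and 6.49, 6.59, 3.62, 4.06 and 1.99 CPM in CSAA+CGA, against 5.91, 5.08, 3.71, 7.84 and 8.00 CPM in CSAA. The lowest value, that of CSAA+CGA Rat5, belonged to the rat that was also lowest for S100a8 and Mmp8. The log2 fold changes over CSAA were -0.08 for CSAA+PTS (SE 0.32), -0.48 for CSAA+RSV (SE 0.35) and -0.43 for CSAA+CGA (SE 0.33), with edgeR adjusted p of 0.953, 1.00 and 1.00. Without CSAA+PTS Rat2 the value for CSAA+PTS was -0.41, and without the fifth rat of each diet it was 0.16. The ratio of Mmp8 to Mmp9 counts ran from 8.00 to 14.6 in CSAA+PTS rats and from 6.71 to 13.8 in CSAA rats.

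Fcnb encodes ficolin-B, a carbohydrate-binding protein that can start the lectin pathway of complement and, in mouse, is made by myeloid cells of the marrow. It showed the lowest unadjusted p among the members. Its CPM were 18.7, 40.9, 17.95, 41.7 and 22.7 in CSAA+PTS Rat1 to Rat5, against 41.0, 45.9, 43.7, 57.7 and 42.1 in CSAA Rat1 to Rat5. Of the 5 CSAA+PTS rats, 4 lay below every CSAA rat, and CSAA+PTS Rat4 lay above the lowest of them. The mean was 28.4 ± 11.9 CPM in CSAA+PTS and 46.1 ± 6.73 CPM in CSAA (SD, n = 5 each). This was a log2 fold change of -0.70 (SE 0.28, 95% interval -1.29 to -0.11), with an unadjusted edgeR p of 0.0231 and an adjusted p of 0.640. The exact two-sided permutation test of log2 CPM gave p = 0.0159, where 0.00794 is the smallest that 5 against 5 rats allow, with no adjustment over genes. The difference did not pass the threshold over all genes.

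In the other diets, too, Fcnb had rats below every CSAA rat, 3 of 4 in CSAA+RSV and 2 of 5 in CSAA+CGA. It had 56.7, 40.6, 16.4 and 29.0 CPM in CSAA+RSV, a range that covered nearly that of all 19 rats, and 51.6, 49.4, 36.03, 55.0 and 37.1 CPM in CSAA+CGA. Over CSAA the log2 fold change was -0.37 in CSAA+RSV (SE 0.30, adjusted p = 1.00) and -0.01 in CSAA+CGA (SE 0.28, adjusted p = 1.00). For CSAA+RSV it moved to -0.69 without its Rat1 and to -0.13 without its Rat3.

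Fcnb was also the member whose level followed the hemoglobin share of the libraries. Over 19 rats, Pearson r between its log2 CPM and that share was 0.70 (permutation p = 0.00072, adjusted p = 0.0115 over 16 relations), and Spearman rho was 0.68 (permutation p = 0.00211, adjusted p = 0.0338). Without the 2 rats farthest from the median hemoglobin share r was 0.55. Within rat numbers r was 0.73 (permutation p = 0.00326, adjusted p = 0.0522), and within diets, a setting chosen after seeing the data, it was 0.50 (permutation p = 0.0559), so the relation was past the adjusted threshold over all rats but in neither of these. Hemoglobin genes took 4.12% to 11.2% of counts in CSAA+PTS rats and 10.8% to 15.8% in CSAA rats. In CSAA+PTS over CSAA, 5 of the 6 erythroid marker genes were below 0 on the log2 scale. An unadjusted edgeR p under 0.05 was met by 4, against 7.58% of all genes, and an adjusted one by 0. These 4 were Hba-a1, Hba-a2 and Hbb, which are themselves part of the hemoglobin share, and Slc4a1 (log2 fold change -0.64). Alas2 (-0.0013) and Ahsp (0.0060) lay near 0. Hbb, Slc4a1, Alas2 and Ahsp are named after their values were seen. With hemoglobin genes left out of library sizes and tests, the log2 fold change of Fcnb was -0.70 (edgeR adjusted p = 0.639). That setting drops rows and leaves the Fcnb reads as they were, so it cannot separate Fcnb from red-cell RNA. The part of red-cell RNA or of cell composition in the Fcnb values was not tested.

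**Figure D2:**
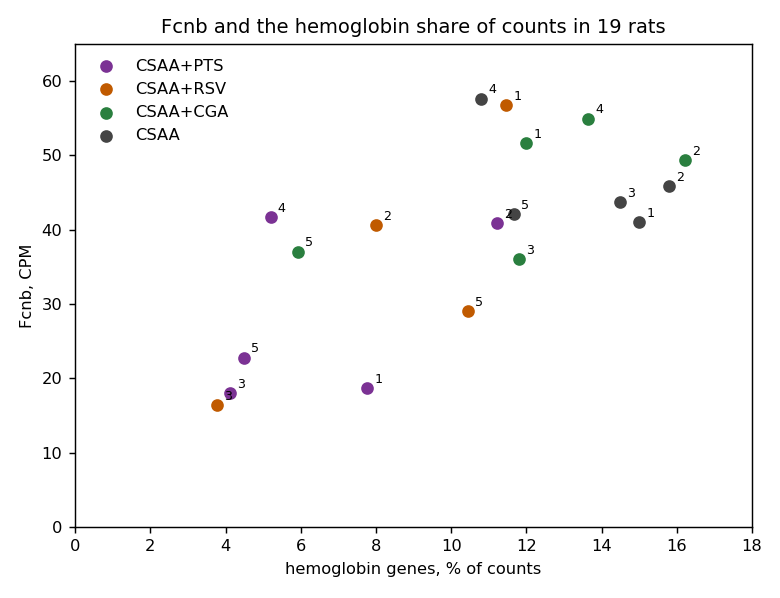
CPM of Fcnb (vertical axis) against the percentage of counts from hemoglobin genes (horizontal axis) in 19 rats, with colors for diets and numbers for rats. CSAA+PTS Rat1, Rat3 and Rat5 and CSAA+RSV Rat3 lie at 16.4 to 22.7 CPM with hemoglobin shares of 3.78% to 7.76%, and all CSAA rats lie at 41.0 CPM or more with shares of 10.8% or more, whereas CSAA+PTS Rat4 (41.7 CPM, 5.20%), CSAA+CGA Rat5 (37.1 CPM, 5.93%) and CSAA+RSV Rat2 (40.6 CPM, 7.99%) combine a low share with a higher level.

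Ngp, neutrophilic granule protein, is a cystatin-like protein of specific granules known mainly from mouse marrow. It had 1.29, 3.09, 9.14, 1.13 and 1.46 CPM in CSAA+PTS, 1.20, 1.19, 1.61 and 1.41 CPM in CSAA+RSV and 1.13, 2.23, 1.38, 0.850 and 1.55 CPM in CSAA+CGA, against 1.41, 1.54, 1.57, 2.102 and 0.534 CPM in CSAA. The 256 reads of CSAA+PTS Rat3 contrast with 17 to 79 reads in the other rats. CSAA+PTS Rat2 was next, and the remaining CSAA+PTS rats lay within the CSAA range. On the log2 scale CSAA+PTS over CSAA was 1.16 (SE 0.49, 95% interval 0.14 to 2.18), with an unadjusted edgeR p of 0.0281 and an adjusted p of 0.642, while the exact permutation test gave p = 0.302 and limma gave an unadjusted p of 0.625. Without CSAA+PTS Rat3 it was 0.27 (range over all rats left out 0.27 to 1.38). CSAA+RSV, CSAA+CGA and CSAA rats all lay within 0.534 to 2.23 CPM.

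Of the other specific granule genes and receptors, Camp, Cd177 and Fpr2 had the lowest unadjusted p among those above 0. Their highest CSAA+PTS level was in Rat2 or Rat3. They were picked by these same values, so the rats in which they peaked are a description only. Camp, which encodes the antimicrobial cathelicidin of specific granules, had 0.895, 5.05, 4.85, 1.65 and 1.34 CPM in CSAA+PTS, against 2.07, 1.75, 1.45, 1.53 and 1.19 CPM in CSAA. Cd177, a neutrophil surface glycoprotein also stored in specific granules, had 0.358, 1.34, 2.11, 0.751 and 1.60 CPM in CSAA+PTS, against 0.470, 0.525, 1.29, 0.795 and 0.377 CPM in CSAA. Fpr2, a receptor for formylated and other peptides, had 0.859, 2.08, 2.28, 1.501 and 0.641 CPM in CSAA+PTS, against 0.705, 0.630, 0.848, 1.45 and 0.753 CPM in CSAA. The edgeR log2 fold changes were 0.78 for Camp, 0.83 for Cd177 and 0.73 for Fpr2, with adjusted p of 0.656, 0.656 and 0.642. None passed the threshold.

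Lcn2 encodes lipocalin-2, which withholds iron from bacteria by binding their siderophores. It was nearly undetected, with 37 reads in 19 rats. CSAA+PTS rats had 2, 0, 2, 2 and 4 reads, CSAA+RSV rats 0, 1, 2 and 9, CSAA+CGA rats 1, 0, 1, 0 and 8, and CSAA rats 1 each. At 0 reads, up to 3 reads or 0.0848 to 0.122 CPM remain possible in those 4 rats, by counting error alone. The fifth rats had 1 to 9 reads and the other rats 0 to 2. The fifth rats were also those with the most genes detected, and the part of that difference in the Lcn2 counts was not tested. No diet was compared for Lcn2.

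The 2 receptors of the set are Csf3r, the receptor for granulocyte colony-stimulating factor, which drives neutrophil production, and Cxcr2, the receptor for CXC chemokines that release neutrophils from marrow and draw them into tissue. Csf3r had 46.1, 38.7, 19.6, 65.5 and 30.0 CPM in CSAA+PTS, 39.8, 63.3, 42.9 and 96.6 CPM in CSAA+RSV and 82.8, 58.5, 29.4, 56.8 and 29.4 CPM in CSAA+CGA, against 44.97, 45.1, 36.1, 92.8 and 90.6 CPM in CSAA. The highest rat had 65.5 CPM in CSAA+PTS, 96.6 in CSAA+RSV, 82.8 in CSAA+CGA and 92.8 in CSAA, and the groups overlapped. CSAA+PTS over CSAA was -0.63 on the log2 scale (SE 0.37, 95% interval -1.40 to 0.13, unadjusted edgeR p = 0.1005, adjusted p = 0.686, exact permutation p = 0.167). For CSAA+RSV it was -0.03 (SE 0.39) and for CSAA+CGA -0.27 (SE 0.36), both with adjusted p of 1.00. The value for CSAA+RSV was 0.16 without CSAA Rat4 and 0.04 in limma.

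Cxcr2 had 20.4, 32.6, 16.8, 35.4 and 14.4 CPM in CSAA+PTS, 30.9, 34.6, 22.7 and 36.3 CPM in CSAA+RSV and 41.1, 25.1, 18.6, 28.0 and 17.3 CPM in CSAA+CGA, against 21.6, 25.2, 25.4, 49.5 and 36.1 CPM in CSAA. Rats below every CSAA rat numbered 3 of 5 in CSAA+CGA for each of S100a8, S100a9 and Mmp8. For Cxcr2 they numbered 3 of 5 in CSAA+PTS, 2 of 5 in CSAA+CGA and 0 of 4 in CSAA+RSV. CSAA+PTS over CSAA was -0.40 on the log2 scale (SE 0.28, 95% interval -0.996 to 0.19, adjusted p = 0.704, exact permutation p = 0.238), and without CSAA Rat4 it was -0.18. The values for CSAA+RSV and CSAA+CGA were -0.02 and -0.28 (SE 0.30 and 0.28).

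The receptors and the S100 genes did not keep a fixed ratio in CSAA+PTS rats. The ratio of S100a8 to Csf3r counts was 2.72, 9.18, 7.82, 2.54 and 2.82 in CSAA+PTS rats and ran from 1.32 to 3.69 in CSAA+RSV and from 1.90 to 3.62 in CSAA+CGA, against 3.01, 2.91, 4.35, 1.41 and 2.11 in CSAA rats. CSAA+PTS Rat2 and Rat3 thus held the 2 highest ratios, the one through a high S100a8 and the other through the lowest Csf3r level of the 19 rats. These ratios are a description and were not tested.

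**Figure D3:**
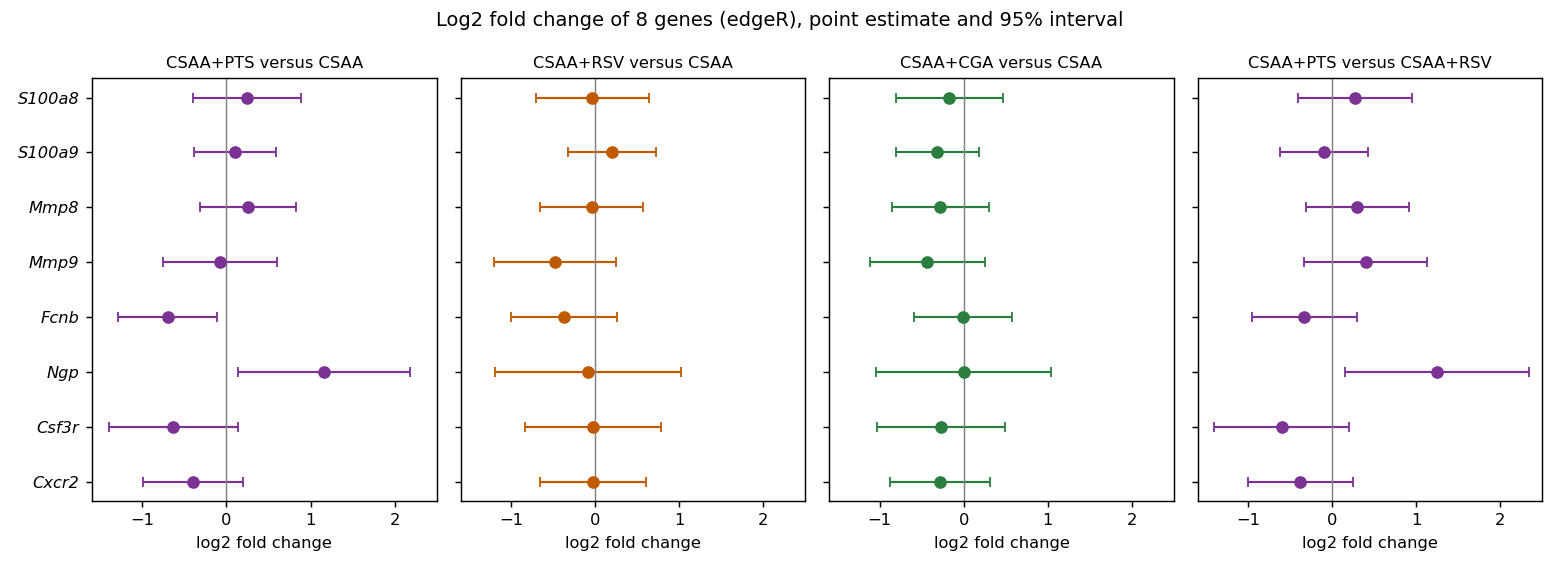
Log2 fold change of the 8 genes that passed the filter (vertical axis) in each of 4 comparisons (panels), with edgeR estimates as points and 95% intervals as bars on the horizontal axis. Only the intervals of Fcnb in CSAA+PTS versus CSAA (-1.29 to -0.11) and of Ngp in CSAA+PTS versus CSAA (0.14 to 2.18) and versus CSAA+RSV (0.15 to 2.35) leave out 0, before any adjustment over genes.

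Of the 8 members, 0 were called in CSAA+PTS versus CSAA by edgeR at an adjusted p under 0.05, where 0 of all genes (0%) were called. Fcnb, lower, and Ngp, higher, were the 2 members with an unadjusted p under 0.05, a limit that 1269 of all genes (7.58%) met. DESeq2 called 6 genes and limma 26, with no member among them. The median log2 fold change of the 8 members was 0.01, against 0.02 over all genes, with 4 above and 4 below 0.

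In CSAA+RSV versus CSAA, edgeR called 0 genes (0%), and 0 members had an unadjusted p under 0.05, against 355 genes (2.12%). The median log2 fold change of the members was -0.04, against 0.02 over all genes, with only S100a9 above 0. For S100a8, Csf3r, Cxcr2 and Mmp8 that sign turned in limma. In CSAA+CGA versus CSAA, edgeR called 0 genes (0%), and 0 members had an unadjusted p under 0.05, against 107 genes (0.639%). All 8 estimates lay below 0, those of Fcnb and Ngp by 0.01 or less, and the median was -0.27, against -0.01 over all genes. The sign turned for S100a8, Csf3r, Cxcr2 and Fcnb in limma, for S100a8, Csf3r and Fcnb without the fifth rats, and for Ngp with hemoglobin genes left out. DESeq2 and limma called 0 genes in both comparisons. The 3 comparisons with CSAA share the same 5 CSAA rats.

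Pterostilbene and resveratrol differ by the 2 methoxy groups that replace hydroxyl groups of resveratrol, and they formed the only related pair of compounds compared. In CSAA+PTS versus CSAA+RSV, edgeR called 0 genes (0%), DESeq2 1 and limma 1, none of them a member. At an unadjusted p under 0.05 there was 1 member, Ngp, against 512 genes (3.06%). The Ngp log2 fold change was 1.25 (SE 0.52, 95% interval 0.15 to 2.35, unadjusted p = 0.0285, adjusted p = 1.00, exact permutation p = 0.357), and without CSAA+PTS Rat3 it was 0.36. Csf3r differed by -0.60 on the log2 scale (95% interval -1.41 to 0.20) and Cxcr2 by -0.38 (-1.01 to 0.25). Of the CSAA+PTS rats, 3 lay below all CSAA+RSV rats for each receptor. The intervals were -0.40 to 0.95 for S100a8, -0.62 to 0.42 for S100a9, -0.31 to 0.91 for Mmp8, -0.33 to 1.13 for Mmp9 and -0.95 to 0.29 for Fcnb. With intervals this wide, the missing calls do not show that the compounds act alike.

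Across all 4 diets at once, the F test of edgeR called 0 genes (0%), DESeq2 2 and limma 4. Ngp was the only member with an unadjusted p under 0.05 (edgeR adjusted p = 1.00), against 522 genes (3.12%). Rat number, with diet in the model, was associated with far more genes: 1674 were called (10%) and 5088 had an unadjusted p under 0.05 (30.4%). Of the 8 members, 0 were called and 2 had an unadjusted p under 0.05, Fcnb (edgeR adjusted p = 0.0977) and Csf3r (edgeR adjusted p = 0.117). These 2 of 8 are near the background of 30.4%. Without the fifth rats, 0 genes were called for rat number. The labels do not say what the numbers stand for, and the sources used here do not give which rats shared a sequencing lane. A second number in the sample descriptions rose with rat number, from 1 to 16 in Rat1 to Rat4. It was 17, 22, 23 and 24 in the fifth rats, and its meaning is not stated either.

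Among themselves the members varied together in part. Of the 28 pairs of 8 genes, 24 had a positive Pearson r of log2 CPM over the 19 rats, the median was 0.44, and 14 passed an adjusted p under 0.05 by permutation over the 28 pairs. Mmp8 went with S100a9 (r = 0.82, rho = 0.83, permutation p = 1e-05 for r and 3e-05 for rho, adjusted p = 0.00028 and 0.00084, the first p being the smallest that the permutations can give). It went with S100a8 as well (r = 0.81, rho = 0.68, permutation p = 8e-05 and 0.00172, adjusted p = 0.00056 and 0.00803) and with its fellow protease Mmp9 (r = 0.81, rho = 0.66, permutation p = 5e-05 and 0.00237, adjusted p = 0.000467 and 0.00868). Without the 2 rats farthest from the median of the first gene these r were 0.75 for S100a9 and Mmp8, 0.55 for S100a8 and Mmp8 and 0.61 for Mmp8 and Mmp9.

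The receptors also went together. Csf3r and Cxcr2 had r = 0.85 and rho = 0.83 (permutation p = 3e-05 and 7e-05, adjusted p = 0.00042 and 0.00098), with r = 0.84 without the 2 farthest rats and r = 0.84 within rat numbers (adjusted p = 0.0143). Cxcr2 also followed S100a9 (r = 0.72, rho = 0.71, permutation p = 0.00054 and 0.00097, adjusted p = 0.00252 and 0.00679). Csf3r had r = 0.28 with S100a8 and r = 0.36 with Mmp8 (permutation p = 0.248 and 0.136, adjusted p = 0.316 and 0.20). With Mmp9, however, Csf3r passed the threshold (r = 0.55, rho = 0.67, permutation p = 0.0156 and 0.00248, adjusted p = 0.0311 and 0.00868). Within rat numbers the r of Csf3r and Mmp9 was 0.52 (adjusted permutation p = 0.223). All 10 pairs of S100a8, S100a9, Mmp8, Mmp9 and Cxcr2, a grouping made after seeing the values, had r from 0.55 to 0.82. The difference between the r of 2 pairs was not tested.

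Over all rats, Fcnb and Ngp took less part in that pattern. By Pearson r, Fcnb passed the threshold with Cxcr2 only (r = 0.60, rho = 0.59, permutation p = 0.0064 and 0.00955, adjusted p = 0.0163 and 0.0243), and its r with S100a9 was 0.05. It also passed with Mmp9 by rank (rho = 0.52, adjusted permutation p = 0.047). Within diets Fcnb went with 3 members, Cxcr2 (r = 0.68, adjusted p = 0.00624), Mmp8 (r = 0.59, adjusted p = 0.0166) and Mmp9 (r = 0.54, adjusted p = 0.0166), by permutation, and within rat numbers with 0. Ngp passed it with Csf3r only, in the opposite direction (r = -0.56, permutation p = 0.0107, adjusted p = 0.025). The rank correlation of that pair was -0.45 (permutation p = 0.0565, adjusted p = 0.093), and r was -0.35 without the 2 rats farthest from the median Csf3r, so the relation rests on few rats. CSAA+PTS Rat3 had both the highest Ngp and the lowest Csf3r. With values centred within rat number 8 pairs passed, and with values centred within diet, a setting chosen after seeing the data, 15 did.

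**Figure D4:**
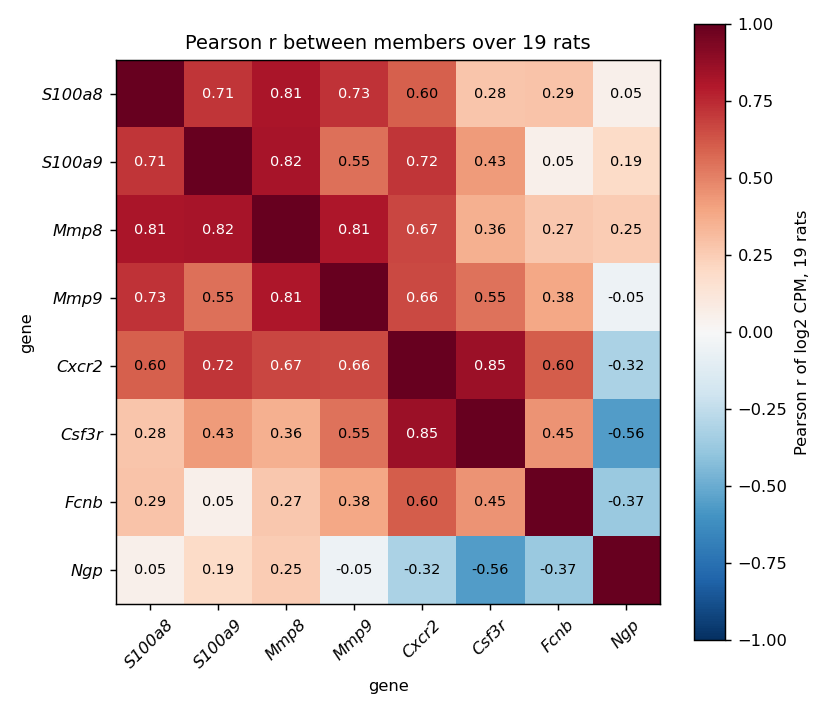
Pearson r of log2 CPM for each pair of the 8 genes over 19 rats (both axes list genes, color and printed number give r). S100a8, S100a9, Mmp8, Mmp9 and Cxcr2 form a block of r from 0.55 to 0.82, and Ngp has r from -0.56 to 0.25. Csf3r has r of 0.85 with Cxcr2 and 0.55 with Mmp9, and 0.28 to 0.43 with S100a8, S100a9 and Mmp8.

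**Figure D5:**
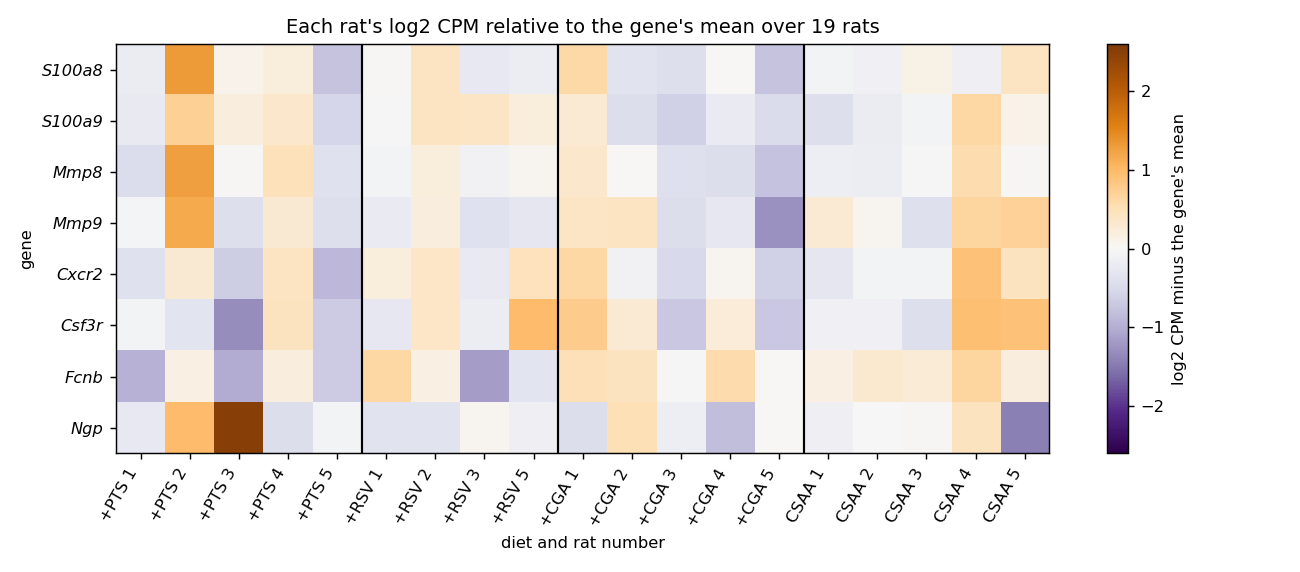
Log2 CPM of each gene (rows) in each rat (columns, grouped by diet) minus the gene's mean over 19 rats, shown as color. CSAA+PTS Rat2 and CSAA Rat4 are above the mean for most genes, CSAA+PTS Rat5 and CSAA+CGA Rat5 below it, and CSAA+PTS Rat3 pairs the highest Ngp with the lowest Csf3r.

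Most of the variance of the members lay within diets. The share of the variance of log2 CPM that lay between diets was 6.82% for S100a8, 13.9% for Mmp8, 14.2% for Mmp9, 15.98% for Cxcr2, 17.3% for Csf3r and 18.2% for Ngp. It was 24.5% for S100a9 and 37.4% for Fcnb, against a median of 12.0% over all genes. Between rat numbers it was 14.04% (S100a9) to 38.6% (Mmp9), against a median of 35.8% over all genes. The spread of S100a8 in CSAA+PTS rested on Rat2, with 355 CPM there and 84.8 to 166 CPM in the other CSAA+PTS rats, against 131 to 191 CPM in CSAA. Mmp8 had 125 CPM in CSAA+PTS Rat2 and 38.1 to 72.7 CPM in the other CSAA+PTS rats, against 46.5 to 77.0 CPM in CSAA. The spreads were not tested.

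No other member followed a library measure past the threshold. Correlations with the hemoglobin share were -0.25 to 0.37 for the 7 members other than Fcnb, with adjusted permutation p of 0.393 or more. With the number of genes detected they ran from -0.51 for S100a8 (rho = -0.49, permutation p = 0.0278 and 0.0329, adjusted p = 0.222 and 0.263) to 0.04 for Csf3r. For S100a8 r was -0.42 without the 2 rats farthest from the median and -0.51 within rat numbers (adjusted p = 0.213).

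Genes of the same biology were set beside the members by their counts. Azurophil granule genes were almost absent: of 8 listed, 1 passed the filter, Mpo, the myeloperoxidase that makes hypochlorous acid, with a mean of 0.143 CPM. Mpo, too, was highest in the fifth rats, with 0.466 CPM in CSAA+PTS Rat5, 0.469 in CSAA+RSV Rat5, 0.295 in CSAA+CGA Rat5 and 0.220 in CSAA Rat5, against at most 0.173 CPM elsewhere. Of 11 other genes tested from the list for specific and gelatinase granules, 7 were above and 4 below 0 in CSAA+PTS over CSAA. Their median log2 fold change was 0.09, with none past an unadjusted p of 0.05. That list also held Padi4, which encodes an enzyme that citrullinates histones. Of 17 other surface receptors, 8 were above and 9 below 0 (median -0.0035). An unadjusted edgeR p under 0.05, met by 7.58% of all genes, was met by 1 receptor above 0 and 1 below. These were Fpr2 at 0.73 (edgeR adjusted p = 0.642) and the integrin chain Itgb2 at -0.52 (edgeR adjusted p = 0.640).

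Of 6 listed ligands of Csf3r or Cxcr2, 4 passed the filter, and Csf3, the Csf3r ligand, did not. In CSAA+PTS over CSAA 4 were above and 0 below 0, with a median log2 fold change of 0.93, against 0.02 over all genes. An unadjusted edgeR p under 0.05 was met by 0 of them. Ppbp, which platelets store and which gives rise to a Cxcr2 ligand, had a mean of 38.6 CPM and a log2 fold change of 0.15 in CSAA+PTS over CSAA (edgeR adjusted p = 0.845), and is named here after its values were seen. The Cxcr2 ligands Cxcl1 and Cxcl2 were scarce, with means of 0.976 and 0.209 CPM. Cxcl1 had 0.394, 0.244, 1.53, 0.318 and 3.53 CPM in CSAA+PTS, against 0.313, 0.560, 0, 0.596 and 0.345 CPM in CSAA. CSAA+PTS Rat5 held 121 of these reads, and CSAA+PTS Rat1, Rat2 and Rat4 lay within the CSAA range. In CSAA+CGA, too, Rat5 stood alone, with 6.999 CPM of Cxcl1 against 0.120 to 0.323 CPM in the other CSAA+CGA rats. The edgeR log2 fold changes in CSAA+PTS over CSAA were 1.70 for Cxcl1 and 1.73 for Cxcl2, with adjusted p of 0.694 and 0.690.

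Of 9 genes of Csf3r signaling, 3 were above and 6 below 0 in CSAA+PTS over CSAA (median -0.08), with Stat5a, a transcription factor activated downstream of the receptor, at -0.23 (unadjusted p = 0.0385, adjusted p = 0.642). Of 5 subunits of the NADPH oxidase and its regulators, 2 were above and 3 below 0, with Rac2 at -0.33 (unadjusted p = 0.0403, adjusted p = 0.642). Of 5 inhibitors of granule proteases tested, 2 were above and 3 below 0, and of 4 receptors of calprotectin and lipocalin-2, 2 were above and 2 below. Slpi was counted both here and in the granule list, and Tlr4 in both receptor lists.

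Among 8 transcription factors of the granulocyte lineage, 6 were below 0 in CSAA+PTS over CSAA, against 47.2% of all genes. The median log2 fold change was -0.41, against 0.02 over all genes. Runx1, which acts early in the myeloid lineage, was at -0.44 (edgeR adjusted p = 0.599). Cebpa, which directs progenitors toward granulocytes, was at -0.54 (edgeR adjusted p = 0.613). Both had an unadjusted edgeR p under 0.05, as did 7.58% of all genes. For rat number Runx1 was called (edgeR adjusted p = 0.0350) and Cebpa was not (edgeR adjusted p = 0.0862), against 10% of all genes. Of 9 other cytosolic genes and mediators, 4 were above and 5 below 0, with S100a11 at -0.89 (unadjusted p = 0.0282, adjusted p = 0.642). In none of these lists did a gene pass the adjusted threshold in any of the 4 comparisons.

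In CSAA+PTS versus CSAA+RSV, where 3.06% of all genes had an unadjusted p under 0.05, 9 genes of these lists did, all with an edgeR adjusted p of 1.00. Of the 11 genes from the list for specific and gelatinase granules, Cd177 (log2 fold change 1.27) and Camp (1.06) were above 0. Arg1, arginase 1, was below it (-1.63). Of the 9 cytosolic genes and mediators, 4 were below 0, S100a11 (-1.02), Anxa1, which encodes annexin A1 (-0.82), the stefin Stfa2 (-0.49) and S100a6 (-0.34). Arg1, Anxa1, Stfa2 and S100a6 are named after their values were seen. Of the 8 transcription factors, 2 met that limit, both below 0, and in the remaining lists 0 genes did. In CSAA+RSV versus CSAA 2 cytosolic genes and mediators met it, both above 0, and in CSAA+CGA versus CSAA 0 genes of any of these lists.

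Markers of other blood cells were present in every diet. The summed level of 5 monocyte markers was 1043 to 1545 CPM in CSAA+PTS and 1013 to 1813 CPM in CSAA, and that of the 9 members themselves was 461 to 1241 CPM in CSAA+PTS and 585 to 1016 CPM in CSAA. T-cell markers summed to 126 to 170 CPM in CSAA+PTS, against 114 to 151 CPM in CSAA. B-cell markers summed to 53.0 to 100.7 CPM in CSAA+PTS, against 70.4 to 92.9 CPM in CSAA. NK-cell markers summed to 55.7 to 90.8 CPM in CSAA+PTS, against 52.3 to 87.0 CPM in CSAA, and platelet markers to 609 to 1363 CPM in CSAA+PTS, against 818 to 1222 CPM in CSAA. Eosinophil and basophil markers stayed below 5 CPM in sum in all diets. The groups overlapped for each of these sums.

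Among 12072 other genes with a mean of at least 1 CPM, those whose rat-to-rat pattern was most like the mean of the 8 members, over 19 rats, were led by Dusp1, which encodes a phosphatase of MAP kinases (r = 0.94). Slc16a3, a lactate transporter, had r = 0.93, and Klf6, a zinc-finger transcription factor, r = 0.92. Nadk (0.89), Padi4 (0.89), Mcemp1 (0.89), Tcn2 (0.88), Nuak2 (0.88), Cd302 (0.87) and Hcar2 (0.87) completed the 10. Padi4 encodes the enzyme that citrullinates histones in neutrophil extracellular traps, and Hcar2 a receptor for hydroxybutyrate and niacin. Dusp1 had 23.2, 60.5, 31.7, 31.5 and 12.4 CPM in CSAA+PTS, against 19.6, 24.5, 28.3, 47.4 and 35.2 CPM in CSAA, with CSAA+PTS Rat2 and CSAA Rat4 on top of their diets as for Mmp8. These r were the highest of many and are given as a description, without a test.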

How the data were processed

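RNA from whole blood of 20 rats was made into stranded libraries and read from 1 end for 50 bases. Per the labels and the study's methods, FastQC 0.11 and Trimmomatic 0.32 served for quality checks and trimming, and TopHat2 2.1 for alignment to rn6. The authors deposited whole-number read counts per Ensembl gene, with no normalization. Whether counting used strand is not stated in those sources, so reads of an overlapping antisense gene may be included. A gene was removed if 5 or more of the 19 rats had under 2 reads.

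All diets entered a single model in R 4.3.3. The quasi-likelihood test of edgeR 4.0.16 was used with TMM, two-sided, and p was adjusted over 16734 genes with a limit of 0.05. DESeq2 1.42.0 and limma 3.58.1 (voom with sample weights) were alternatives, as were other scaling, filters, sets of rats and each rat left out. Log2 CPM used a prior count of 2. Exact two-sided permutation over rats tested single genes, and 100000 permutations in Python 3.11.15 tested correlations, over 28 pairs of members and 16 relations to library measures because Lcn2 did not pass the filter. The code was tested on simulated data. Named genes were all 9 members, up to 2 genes of each list with the lowest unadjusted p for CSAA+PTS versus CSAA, and the 10 genes most like the members. The members and lists were chosen with earlier results of these data known. Intervals and floors cover counting error only where they come from a single library. RefSeq promoters are of build GRCr8, not rn6, and were used for sequence alone.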

Additional observations from a re-analysis of the deposited data

Results flagged for a closer look

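In 3 of 36 groups of rats, counting the 9 genes in each of the 4 diets, the highest rat stood apart from the others by the Dixon criterion at 95%, which chance alone meets in about 1 of 20 groups. Ngp had 9.14 CPM in CSAA+PTS Rat3, from 256 reads, where the rest of that diet lay at 1.13 to 3.09 CPM. Mmp8 had 77.0 CPM in CSAA Rat4, where the other CSAA rats had 46.5 to 53.7 CPM. Lcn2 had 0.197 CPM in CSAA+CGA Rat5, a value that rests on 8 reads, where the other CSAA+CGA rats had 0 to 0.0323 CPM. The S100a8 and Mmp8 levels of CSAA+PTS Rat2 did not meet the criterion. No cause was tested.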

How the results depend on the processing

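Over 29 alternative settings, 19 of which left out 1 rat, 928 log2 fold changes of members were recomputed. Of these, 878 kept their direction, 50 reversed and 0 passed the adjusted threshold, the lowest adjusted p being 0.226 (Fcnb, CSAA+PTS versus CSAA, replicate block, log2 fold change -0.77).

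For CSAA+PTS versus CSAA, DESeq2 called 6 genes and limma 26, against 0 in edgeR, and leaving out 1 rat gave 0 to 8, with 8 without CSAA+PTS Rat2. DESeq2 and limma called 1 gene each for CSAA+PTS versus CSAA+RSV, and 2 and 4 genes over all diets. For CSAA+RSV and CSAA+CGA versus CSAA the count was 0 throughout. Rat number was called for 7428 genes with no filter on low counts, 3234 in DESeq2, 4758 in limma and 0 without the fifth rats, and for 628 (without CSAA+RSV Rat5) to 2810 (without CSAA+CGA Rat5) with 1 rat left out. Pairs of members past the threshold numbered 9 without the 2 farthest rats and 8 within rat number, and members past it with a library measure numbered 0 within rat number and 0 within diet. No cause of these shifts was tested.

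In CSAA+PTS versus CSAA, leaving out 1 rat gave log2 fold changes of -0.14 to 0.42 for S100a8, -0.050 to 0.29 for S100a9, -0.083 to 0.41 for Mmp8 and -0.41 to 0.052 for Mmp9, and without the fifth rats Mmp9 was 0.16. In CSAA+RSV versus CSAA they were -0.18 to 0.073 for S100a8, -0.35 to 0.16 for Csf3r, -0.13 to 0.20 for Cxcr2, -0.10 to 0.11 for Mmp8 and -0.30 to 0.10 for Ngp. Limma gave 0.18 for S100a8, 0.043 for Csf3r, 0.22 for Cxcr2 and 0.12 for Mmp8 there, and S100a8 was 0.12 without the fifth rats. In CSAA+CGA versus CSAA the ranges were -0.083 to 0.085 for Fcnb and -0.22 to 0.19 for Ngp. Limma gave 0.011 for S100a8, 0.050 for Csf3r, 0.0023 for Cxcr2 and 0.061 for Fcnb, and without the fifth rats S100a8 was 0.054, Csf3r 0.050 and Fcnb 0.024. Ngp was 0.0040 with only these diets fitted and 0.0036 without hemoglobin genes. In CSAA+PTS versus CSAA+RSV the ranges were -0.11 to 0.46 for S100a8, -0.25 to 0.032 for S100a9 and -0.038 to 0.44 for Mmp8, and S100a9 was 0.021 without the fifth rats.

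Deviations of same-numbered rats from their diet means correlated at -0.30 to 0.77 over the 4 comparisons, and not every pair was above 0.1 in any, so the numbers were not taken as pairs. In CSAA+PTS versus CSAA 4 of 5 rats correlated best with their own number. With rat number as a replicate block 0 genes were called in each comparison, and the CSAA+RSV versus CSAA values turned for Csf3r (0.15), Cxcr2 (0.12) and Mmp8 (0.0037).

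Precision is limited by 4 or 5 rats a diet. Mmp9 and Ngp rest on few reads, and Lcn2 on too few for any comparison. Counts come from mixed blood cells, so cell numbers and RNA per cell cannot be told apart.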

Other observations

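The fourth CSAA+RSV rat, left out for its depth of 861072 counts, gave 565 reads for the 9 members. Scaled with the other 19 rats, it had 412 CPM of S100a9, 100.5 CPM of S100a8, 46.2 CPM of Mmp8, 36.9 CPM of Csf3r, 34.6 CPM of Fcnb and 17.3 CPM of Cxcr2. Mmp9 rested on 3 reads, Ngp on 1 and Lcn2 on 0. None of the 9 genes was above every CSAA rat there.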
